A study of Mus musculus with 12 samples.

Results

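Livers of mice that received a virus with a non-targeting guide RNA were compared with livers of mice that received saline, gene by gene. The comparison uses 8 of the 12 liver libraries, chosen by their labels: 4 after control gRNA virus and 4 after PBS (phosphate-buffered saline). All mice were of the strain Rosa26-LSL-dCas9-p300, a knock-in in which catalytically inactive Cas9 joined to the acetyltransferase p300 stays silent until Cre recombinase removes a stop cassette. Both groups had the tail-vein injection at about 8 weeks of age and were sampled 2 weeks later. The control gRNA group received 1e+12 viral genomes per mouse of an adeno-associated virus (AAV) listed as AAV.Cbh.gRNA, and the PBS group received no virus. Polyadenylated RNA was sequenced from whole, snap-frozen liver. The remaining 4 libraries, from mice given a virus with a Pdx1 gRNA, are not part of the contrast. They did enter the filter on low counts, the scaling and the shared estimate of spread. Not given in the sources used here are the source of Cre, the animals' sex, their litters and the day of extraction. Virus, guide, and any Cre or fusion activity therefore cannot be told apart in this comparison. Whether every library is a different animal is not stated, and the p-values refer to variation among libraries.

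AAV is a small non-enveloped DNA virus, used as a vector because it enters hepatocytes efficiently from the blood. Cells can sense viral nucleic acid and then switch on interferon-stimulated genes, while damaged DNA activates p53 and its target Cdkn1a. Unrelated stresses that slow translation act through the transcription factor Atf4 (the integrated stress response), and electrophiles act through NRF2, which drives glutathione enzymes. Hepatocytes in turn make most plasma proteins and control lipid, glucose and nitrogen metabolism, and many of these functions are controlled by transcription factors such as Hnf4a and Ppara.

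The control gRNA libraries held 16963079 to 22008046 assigned counts and the PBS libraries 11824767 to 17870498. Albumin (Alb), the defining hepatocyte gene, was abundant in all of them and stood at 61600, 51400, 72400 and 91200 CPM in PBS libraries 1 to 4 and at 37200, 49300, 41400 and 52000 CPM in control gRNA libraries 1 to 4. CPM is the count of a gene relative to the library's total after TMM scaling, a correction for differences in composition. Raw counts of the Y-linked gene Ddx3y were 1024 in PBS library 2 and 828 in PBS library 3, and at most 3 elsewhere. Xist, transcribed from the silenced X of females, gave 33 and 43 counts in those libraries and 11132 to 24067 in the others. PBS therefore mixes a male-like and a female-like pattern, whereas the virus libraries are all female-like, and gene lists are also counted against PBS libraries 1 and 4 alone. For a named gene the value against those libraries is given where its call was lost. PBS library 1 stood apart as well, at -91.3 on the second principal component of log2 CPM, where the other 7 libraries ran from -10.1 to 28.2. The fit against PBS libraries 1 and 4 has fewer libraries and keeps this one. Whether a call lost there reflects fewer libraries, PBS library 1 or the male-like libraries was not tested. The targeted gene of the study, Pdx1, had 0 counts in all 4 PBS libraries and in control gRNA libraries 1 to 3, and 2 counts in control gRNA library 4.

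**Figure D1:**
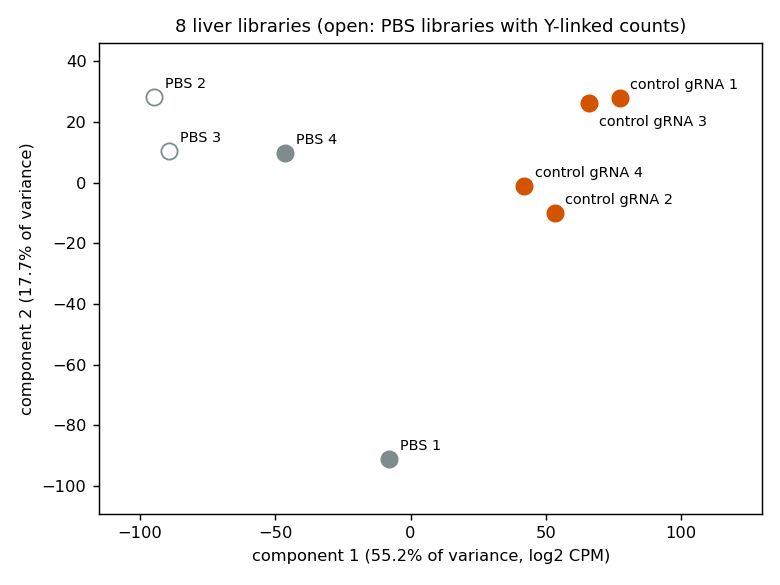
The first 2 principal components of log2 CPM are plotted for the 8 libraries (grey PBS, orange control gRNA, open circles the PBS libraries with Y-linked counts). Component 1 carries 55.2% of the variance and separates the groups, and PBS library 1 lies alone at -91.3 on component 2.

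The liver transcriptome differed widely between the groups. Of 15219 genes tested, 4887 passed an adjusted p of 0.05 in edgeR's quasi-likelihood test (32.1% of genes), 2488 higher (16.3%) and 2399 lower (15.8%) after control gRNA virus. A gene is said to have risen or fallen only where it passed. The shares over all genes, 16.3% higher and 15.8% lower, are the background for the counts of each gene list below. Of these, 1384 rose and 1102 fell at least 2-fold, and 157 rose and 80 fell at least 8-fold. With library sizes alone as the scaling, 4432 genes were higher and 1064 lower, 80.6% of calls higher against 50.9% with TMM, and the median log2 difference of all genes moved from -0.01 to 0.34. Upper-quartile scaling gave 3001 higher and 1854 lower (61.8%). Against PBS libraries 1 and 4 alone, 2258 of 16170 genes passed (14.0%), 1118 higher (6.91%) and 1140 lower (7.05%). In that fit, 2046 of the 4887 genes passed again in the same direction, and 4878 kept their sign. Both fits share the control gRNA libraries and PBS libraries 1 and 4, so the kept signs are no separate test.

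The called genes made up much of the RNA. Genes called higher took 7.35, 6.16, 6.21 and 6.33% of all counts in PBS libraries 1 to 4 and 21.0, 16.2, 19.2 and 15.9% in control gRNA libraries 1 to 4. Genes called lower took 30.8, 41.2, 39.8 and 39.2% after PBS and 18.9, 20.8, 19.9 and 22% after virus. These shares describe genes chosen by the same contrast and are no separate test. Called genes also differed in length: the median exon length was 2801 bases for genes called higher, 5210 for genes called lower and 3765 for all tested. Among the 3044 genes with the shortest exons 777 were higher and 268 lower, and among the 3044 with the longest 219 were higher and 831 lower. With a smooth trend on length removed from each library, 2093 genes were higher and 2410 lower.

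**Figure D2:**
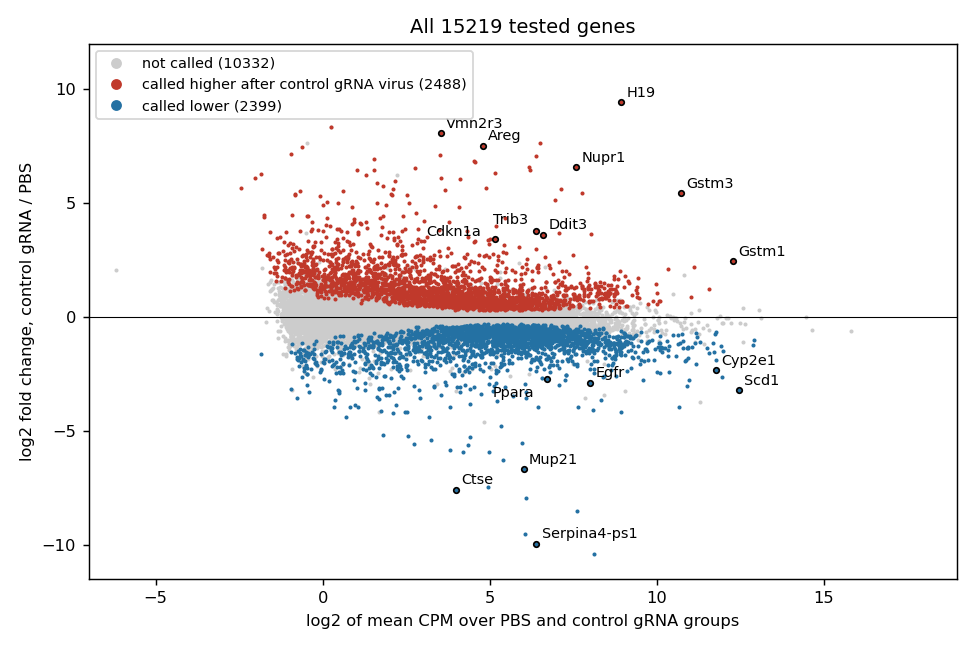
Each point is 1 of 15219 genes, with log2 of its mean CPM on the x axis and its log2 fold change (control gRNA over PBS) on the y axis (red called higher, blue called lower, grey not called). Rises reach far up at low abundance (Vmn2r3, Areg) and also include abundant genes (Gstm3, Gstm1), while Serpina4-ps1 and Ctse are among the deepest falls.

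The largest rises were of genes near silence after PBS. Vmn2r3, a member of a family of vomeronasal pheromone receptors (ENSMUSG00000091572.8, mm10 chromosome 3, 64258961 to 64287495, minus strand), had 4 counts over the 4 PBS libraries. Its level was 0.12, 0.0950, 0.102 and 0 CPM after PBS and 31.0, 21.3, 21.6 and 18.1 CPM after virus (log2 fold change 8.07 ± 0.49 SE, adjusted p = 2.37e-06). Areg encodes amphiregulin, a ligand of the EGF receptor (ENSMUSG00000029378.5, chromosome 5, 91139599 to 91148432, plus strand). Areg was at 0.420, 0.285, 0.205 and 0.215 CPM after PBS and at 60.3, 40.4, 66.4 and 54.0 CPM after virus. Every virus library exceeded every PBS library by far (7.53 ± 0.32, adjusted p = 9.79e-08). Against PBS libraries 1 and 4 the log2 fold changes were 8.31 for Vmn2r3 and 7.36 for Areg, with adjusted p of 0.000522 and 0.00011.

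The Areg promoter is shown because Areg had the smallest adjusted p among the largest rises. The sequence is the 250 bases before the start site (RefSeq, GRCm38.p6, chr5:91139349-91139598, plus strand), and capitals mark a cAMP response element (TGACGTCA, at positions -61 to -54) and a TATA box (TATAAA, at -31 to -26).
Areg: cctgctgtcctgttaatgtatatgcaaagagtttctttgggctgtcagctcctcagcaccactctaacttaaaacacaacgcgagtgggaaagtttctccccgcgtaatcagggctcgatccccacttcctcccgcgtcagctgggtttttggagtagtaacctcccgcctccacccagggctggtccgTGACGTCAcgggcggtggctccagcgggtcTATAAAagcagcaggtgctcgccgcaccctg
Promoters were matched by symbol for 11004 of 15218 tested symbols, and motifs were searched on both strands from 250 bases before to 50 bases after the start. TGACGTCA was in 2.03% of all 27025 genes with a promoter, in 3.4% of the tested genes, in 4.17% of those called higher and in 3.28% of those called lower. TATAAA was in 15.7% of all promoters, in 9.53% of the tested genes, in 10.3% of those called higher and in 11% of those called lower. A match describes letters in this window and does not show that a factor binds there.

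Genes of the EGF family, Areg included, were called in both directions. Of 14 tested ligands, receptors and regulators, 2 rose (Areg and Nrg1) and 5 fell. The 2 that rose are no larger a share than the 16.3% over all genes. Nrg1, a neuregulin ligand of the ErbB receptors, stood at 0.420, 0.475, 0.410 and 1.5 CPM after PBS and at 8.17, 5.22, 9.97 and 9.14 CPM after virus (3.49 ± 0.52, adjusted p = 0.000731). Egfr, the receptor for amphiregulin, was at 325, 705, 509 and 277 CPM after PBS and at 49.8, 85.8, 50.6 and 58.5 CPM after virus. The groups did not overlap, and Egfr was 7.42-fold lower (log2 -2.89 ± 0.44, adjusted p = 0.000851). Egfr is also on the list of male-biased genes, and its value against PBS libraries 1 and 4 was -2.32 (adjusted p = 0.012). Against those libraries 2 of the list rose and 3 fell.

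Glutathione and NRF2 target genes rose together. Of 25 tested, 20 rose and none fell, with a median log2 fold change of 1.38 against -0.01 over all genes, and 16 rose and none fell against PBS libraries 1 and 4. Gstm1, an abundant glutathione S-transferase, was at 1710, 1270, 1730 and 1500 CPM after PBS and at 6820, 6900, 10300 and 9880 CPM after virus (2.45 ± 0.24, adjusted p = 8.82e-05). Gstm3 went from 65.9, 50.3, 77.7 and 110 CPM to 2610, 1730, 4960 and 3960 CPM (5.45 ± 0.48, adjusted p = 5.27e-05), and these 2 genes also had the largest rises in absolute CPM. Gsta1 was at 0.420, 1.71, 1.74 and 2.15 CPM after PBS and at 118, 74.5, 224 and 158 CPM after virus (6.61 ± 0.67). Members of the Gst families are near copies, so reads could be shared among them. The list summed to 4420 to 5700 CPM after PBS and to 15100 to 24100 CPM after virus. Gclm, Txnrd1, G6pdx, Osgin1 and Aox1 were the members that did not pass. Promoters were also searched for the antioxidant response element, an NRF2-type site, in the window given above. It was in 3.45% of all promoters, 3.42% of the tested genes, 3.56% of genes called higher and 3.23% of genes called lower. Among matched genes of this list it was in 1 of 21 (4.76%).

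Some members of this list varied strongly between virus libraries. Cbr3, a carbonyl reductase, was at 16.6, 20.3, 146 and 97.1 CPM in control gRNA libraries 1 to 4 and at 0.360 to 1.90 CPM after PBS (6.31 ± 1.35, adjusted p = 0.00583). Slc7a11, the cystine transporter that supplies glutathione synthesis, was at 39.8, 4.64, 38.8 and 7.87 CPM against 0.0950 to 0.307 CPM after PBS. Libraries 1 and 3 were high and libraries 2 and 4 low, yet none overlapped with PBS (7.11 ± 2.37, adjusted p = 0.0407). That call was lost against PBS libraries 1 and 4 (adjusted p = 0.165) and on leaving out any PBS library or control gRNA library 1 or 3 (0.0816 to 0.0872). Nqo1, a quinone reductase, was at 7.25, 5.13, 6.56 and 15.7 CPM after PBS and at 47.9, 34.8, 86.0 and 70 CPM after virus (2.78 ± 0.44). Gpx2, a glutathione peroxidase of epithelia, had 2 counts over PBS and 378 after virus, a ratio of 109 after TMM scaling of library sizes (exact 95% interval 30.0 to 905, counting error only). Against PBS libraries 1 and 4 the log2 fold changes were 6.92 for Cbr3 and 5.80 for Gpx2, with 6.31 and 6.47 against all PBS libraries.

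Genes of the integrated stress response rose in most cases, with exceptions. Of 35 tested, 20 rose and 2 fell (median 1.06), and 13 rose and 2 fell against PBS libraries 1 and 4. Nupr1, a stress-induced chromatin protein (ENSMUSG00000030717.9, chromosome 7, 126623249 to 126630861, minus strand), was at 6.11, 1.24, 3.89 and 4.36 CPM after PBS and at 682, 201, 363 and 275 CPM after virus. The lowest virus library exceeded the highest PBS library many times over (6.59 ± 0.55, adjusted p = 3.85e-05). Trib3, a pseudokinase that restrains Akt and Atf4, went from 14.9, 8.93, 11.3 and 10.7 CPM to 210, 135, 154 and 128 CPM (3.77 ± 0.21, adjusted p = 1.33e-06). Ddit3, which encodes CHOP, went from 20.1, 15.1, 12.5 and 10.2 CPM to 216, 149, 203 and 144 CPM (3.62 ± 0.24, adjusted p = 4.52e-06). Ddit3 shares 68 exon bases with a gene on the opposite strand, of 1713, and the counts ignored strand. Atf5 rose from 266 to 333 CPM after PBS to 783 to 927 CPM after virus (1.51 ± 0.18).

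Chac1, a glutathione-degrading enzyme on the same list, went the other way. It was at 8.81, 6.46, 3.89 and 5.22 CPM after PBS and at 0.895, 0.626, 0.414 and 0.831 CPM after virus (-3.13 ± 0.35, adjusted p = 0.000163), and Herpud1 was the other member that fell. Fgf21, Cebpb, Gdf15 and Atf4 itself did not pass. The p53 target and stress cytokine Gdf15 was at 17.7, 6.27, 6.66 and 29.3 CPM after PBS and at 17.5, 38.6, 34.8 and 39.2 CPM after virus, so its groups overlapped (adjusted p = 0.0876; 0.0174 without PBS library 4).

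The promoters of Nupr1 and Chac1 are shown because they hold the same element and moved in opposite directions. Capitals mark the core of the C/EBP-ATF composite element, TGATGNAA or its reverse complement, within the 250 bases before each start (RefSeq, GRCm38.p6). Nupr1 lies at chr7:126625471-126625720 on the minus strand, with the match at -110 to -103, and Chac1 at chr2:119350992-119351241 on the plus strand, with the match at -193 to -186.
Nupr1: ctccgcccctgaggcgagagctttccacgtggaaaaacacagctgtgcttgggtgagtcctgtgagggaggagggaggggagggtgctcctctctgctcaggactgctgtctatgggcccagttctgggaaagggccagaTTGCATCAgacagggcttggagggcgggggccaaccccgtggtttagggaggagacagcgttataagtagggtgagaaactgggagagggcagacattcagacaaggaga
Chac1: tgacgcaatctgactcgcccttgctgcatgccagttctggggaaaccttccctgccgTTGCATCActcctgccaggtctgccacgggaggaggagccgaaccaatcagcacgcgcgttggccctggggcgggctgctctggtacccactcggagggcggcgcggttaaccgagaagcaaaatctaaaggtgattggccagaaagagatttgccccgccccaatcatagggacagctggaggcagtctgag
The letters TGATGNAA were in 4.51% of all promoters, in 2.93% of the tested genes, in 2.72% of genes called higher, in 2.84% of genes called lower and in 12 of 29 matched genes of the stress-response list (41.4%). This list consists of genes known as targets of the pathway, so the share describes the list and not the comparison.

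Endoplasmic reticulum chaperone and degradation genes showed another pattern, with 1 higher and 6 lower of 25 (median -0.32, which turned to 0.04 under library-size scaling). Against PBS libraries 1 and 4, none rose and 1 fell, where 7.05% of all genes fell. The 6 became 3 without PBS library 3 or control gRNA library 1 or 3, and none rose without PBS library 2, 3 or 4 or control gRNA library 1, 2 or 3. Edem1, which helps clear misfolded glycoproteins, was at 170, 242, 253 and 285 CPM after PBS and at 120, 131, 147 and 132 CPM after virus (-0.84 ± 0.17, adjusted p = 0.00311). Of 18 heat shock chaperones, 4 rose and none fell, and 1 rose against PBS libraries 1 and 4.

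Targets of p53 rose in part. Of 30 tested, 15 rose and 2 fell (median 0.70), and 12 rose and 1 fell against PBS libraries 1 and 4. Cdkn1a, the cell-cycle inhibitor p21, was at 6.89, 5.32, 4.10 and 7.80 CPM after PBS and at 83.5, 47.5, 77.7 and 51.6 CPM after virus (3.42 ± 0.38, adjusted p = 0.00016). Eda2r, the ectodysplasin A2 receptor, was at 0.599, 1.05, 1.13 and 1.43 CPM after PBS. It was tight among the virus libraries, at 6.42, 7.04, 6.91 and 7.26 CPM (2.72 ± 0.28, adjusted p = 0.000121). Psrc1 rose by 4.34 ± 0.46 on the log2 scale. Mdm2, the ubiquitin ligase that limits p53, rose less, from 37.5 to 55.4 CPM after PBS to 65.6 to 80.0 CPM after virus (0.72 ± 0.15, adjusted p = 0.00463). The 2 members that fell were Sesn1 and Ei24 (adjusted p = 0.322 for Ei24 against PBS libraries 1 and 4), and that count was 0 without PBS library 4 or control gRNA library 1 or 3, 1 without PBS library 2 or 3 or control gRNA library 4, and 4 without PBS library 1.

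Proliferation genes were higher after virus. Of 30 mitosis genes, 27 rose and none fell (median 2.18), and 13 rose and none fell against PBS libraries 1 and 4 (median 1.51). Their summed level was 57.0, 29.5, 30.4 and 125 CPM in PBS libraries 1 to 4 and 365, 158, 283 and 217 CPM in control gRNA libraries 1 to 4, so the groups did not overlap. Cdk1, the kinase that starts mitosis, was at 2.28, 0.760, 0.922 and 3.51 CPM after PBS and at 16.6, 10.6, 13 and 8.87 CPM after virus (2.68 ± 0.40, adjusted p = 0.000709; 2.07 against PBS libraries 1 and 4). Of 30 genes of DNA replication and S phase, 21 rose and none fell (13 and 1 against PBS libraries 1 and 4). Cdc6, which loads the replicative helicase, went from 0.205 to 0.429 CPM to 2.24 to 2.71 CPM (2.94 ± 0.35). Gins2 also rose, but 2758 of its 4097 exon bases overlap Gse1 on the opposite strand. The letters TTTCGCGC, an E2F-type site, were in 0.374% of all promoters, in 0.682% of the tested genes, in 1.39% of genes called higher, in 0.39% of genes called lower and in 6 of 24 matched replication genes.

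Myc and immediate early genes numbered 8 higher and none lower of 23 (4 and 0 against PBS libraries 1 and 4). Myc was at 10.6, 7.13, 1.84 and 4.58 CPM after PBS and at 68.2, 42.4, 62.5 and 55.3 CPM after virus (3.22 ± 0.38, adjusted p = 0.000238). Jun was at 38.7, 15.6, 17.3 and 15.6 CPM after PBS and at 62.8, 48.4, 68.7 and 82.0 CPM after virus, with PBS library 1 the high one (1.58 ± 0.29).

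Genes for the ribosome rose as a body. Of 82 tested cytosolic ribosomal protein genes, 77 rose and none fell (median 1.11), 65 against PBS libraries 1 and 4, and 66 with the length trend removed (median 0.89). Their summed level was 17500, 15800, 16000 and 16400 CPM after PBS and 40600, 37000, 33600 and 28400 CPM after virus. Rpl12 was at 224, 165, 163 and 191 CPM after PBS and at 816, 650, 647 and 516 CPM after virus (1.82 ± 0.19, adjusted p = 0.000121). Rpl22l1, a paralog of Rpl22, had the smallest adjusted p of the list, rising from 12.3 to 21.9 CPM to 57.1 to 90.3 CPM (2.14 ± 0.19, adjusted p = 5.43e-05). Ribosomal protein genes are short and have many processed pseudogenes that can share reads. The letters CCGGAAGT, an ETS-type site, were in 4.31% of all promoters, 8.52% of the tested genes, 10.9% of genes called higher, 5.68% of genes called lower and 19.7% of matched ribosomal protein genes.

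Mitochondrial ribosomal proteins followed to a smaller extent, with 41 higher and none lower of 77 (median 0.44); 25 rose against PBS libraries 1 and 4, and 27 rose without control gRNA library 3. Nuclear genes of the respiratory chain moved little, with 13 higher and 2 lower of 79 (median 0.16, -0.10 with the length trend removed). That count was 26 higher and 5 lower without PBS library 1, 6 to 8 higher without PBS library 3 or 4 or control gRNA library 1, 2 or 3, and at most 1 lower without any library other than PBS library 1. It was 4 higher and none lower against PBS libraries 1 and 4, where 6.91% of all genes were higher and 7.05% lower. Of the 12 mitochondrially encoded genes edgeR, DESeq2 and limma-voom called none, none passed against PBS libraries 1 and 4, none had an unadjusted p under 0.05, and 2 were higher without PBS library 1. Their median of 0.01 changed sign with DESeq2 size factors, with TMM computed without the 20 most abundant genes and with the length trend removed.

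Interferon-stimulated genes rose in most cases and by modest amounts. Of 36 tested, 26 rose and none fell (median 1.11), and 16 rose and none fell against PBS libraries 1 and 4 (median 0.90). Usp18, which removes the ubiquitin-like protein Isg15 from its targets, was at 12.1, 11, 12.2 and 13.4 CPM after PBS and at 36.6, 36.1, 41.2 and 42.2 CPM after virus. This narrow spread gave a rise of 1.68 ± 0.14 (adjusted p = 3.85e-05). Isg15 itself was at 22, 10.9, 12.4 and 13.8 CPM after PBS and at 36.8, 49.8, 60.0 and 52.0 CPM after virus (1.74 ± 0.23, adjusted p = 0.000398). Ifi27l2a rose from 2.56 to 6.73 CPM to 15.3 to 23.7 CPM (2.01 ± 0.26). Irf9, Stat2, Ifih1, Ddx58 and Eif2ak2 were among the 10 members that did not pass.

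The Isg15 promoter is shown because it holds 3 overlapping matches to an interferon-response-like motif (2 GAAA blocks with any 2 bases between them, both strands). Whether the motif has a part in the rise of Isg15 was not tested. Capitals mark the matches as a run from -78 to -57 (RefSeq, GRCm38.p6, chr4:156200819-156201068, minus strand).
Isg15: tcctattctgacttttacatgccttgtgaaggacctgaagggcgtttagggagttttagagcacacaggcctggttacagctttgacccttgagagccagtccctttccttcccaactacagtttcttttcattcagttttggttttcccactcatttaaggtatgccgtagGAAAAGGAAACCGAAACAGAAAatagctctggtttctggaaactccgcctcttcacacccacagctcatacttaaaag
The motif was in 3.99% of all promoters, in 3.93% of the tested genes, in 4.5% of genes called higher, in 3.51% of genes called lower and in 15 of 26 matched interferon-stimulated genes (57.7%). As with the stress list, membership was given by known pathway targets.

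Of 21 genes for AAV entry and innate sensing, 3 rose and 2 fell (1 and 1 against PBS libraries 1 and 4), which is no larger a share than the 16.3% and 15.8% over all genes. Mavs, the adaptor through which RNA sensors signal, was at 61.5, 122, 122 and 115 CPM after PBS and at 28.1, 47.2, 39.6 and 42.2 CPM after virus (-1.42 ± 0.24, adjusted p = 0.00127). Met, the receptor of hepatocyte growth factor, fell by 0.89 on the log2 scale, but PBS library 1 (52.9 CPM) lay within the virus range (49.4 to 59.5 CPM) and the call was lost against PBS libraries 1 and 4 (adjusted p = 0.104). Without PBS library 1 the count of members that fell was 4. Interferon-gamma and antigen presentation genes numbered 12 higher and none lower of 31, and 3 rose against PBS libraries 1 and 4. Cxcl10, a chemokine for activated T cells, was at 10.4, 2.66, 3.38 and 4.87 CPM after PBS and at 20.4, 37.2, 23.7 and 22.3 CPM after virus (2.25 ± 0.41, adjusted p = 0.00199). Of 20 chemokines, 5 rose and 2 fell (1 and 1 against PBS libraries 1 and 4), and 1 fell without PBS library 2 or 3 or control gRNA library 2 or 4. The 2 that fell are no larger a share than the 15.8% over all genes.

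Markers of several other cell types moved beside these groups. In whole liver, more or fewer cells of a type and more or less RNA per cell cannot be told apart. Markers of recruited monocytes, macrophages and dendritic cells numbered 14 higher and none lower of 22 (median 1.33). Their sum was 429, 241, 172 and 469 CPM after PBS and 911, 660, 760 and 480 CPM after virus, so the highest PBS library came close to the lowest virus library. Mmp12, a macrophage elastase, was at 0.240, 0.190, 0.102 and 0.215 CPM after PBS and at 6.16, 3.08, 17.5 and 6.37 CPM after virus (5.37 ± 0.96, adjusted p = 0.00187). Gpnmb, of lipid-laden macrophages, went from 0.285 to 0.717 CPM to 5.75 to 16.4 CPM (4.57 ± 0.65), and Lgals3, galectin-3, from 3.59 to 5.08 CPM to 37.2 to 52.0 CPM (3.34 ± 0.49). The list had 5 higher and none lower against PBS libraries 1 and 4, and 9 were higher without PBS library 2 or 3.

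Lymphocyte and resident macrophage markers gave few calls. Of 19 T and NK cell markers 2 rose (Cd8a and Cd8b1), none against PBS libraries 1 and 4. The count was 9 without PBS library 1, 2 without control gRNA library 4 and 1 without any other library. Cd8a was at 1.26, 0.475, 0.717 and 0.358 CPM after PBS and at 1.72, 3.81, 2.90 and 2.27 CPM after virus (1.89 ± 0.48, adjusted p = 0.0113; 0.0926 against PBS libraries 1 and 4, where that of Cd8b1 was 0.205). The summed T and NK markers ran from 13.8 to 32.2 CPM after PBS and from 29.8 to 52.5 CPM after virus. None of 13 Kupffer cell markers was called by edgeR, nor against PBS libraries 1 and 4, and Clec4f, which defines these cells, overlapped between groups at 50.5 to 155 CPM after PBS and 61.4 to 224 CPM after virus. At an unadjusted p under 0.05, 2 were higher and 1 lower, DESeq2 called 1 higher and 1 lower, and limma-voom called none. Of the 13, 4 were higher without PBS library 4 and 1 without control gRNA library 4. None of 13 B and plasma cell markers was called by edgeR, limma-voom or against PBS libraries 1 and 4, while 1 was higher at an unadjusted p under 0.05, 1 by DESeq2, and 1 without PBS library 1 or control gRNA library 4. The part of these cells in the interferon and proliferation results was not tested.

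Of 7 neutrophil markers, 1 rose. This was Lcn2, which hepatocytes also make, at 16.5, 5.23, 5.23 and 6.65 CPM after PBS and at 171, 35.5, 78.5 and 22.6 CPM after virus (3.17 ± 0.82, adjusted p = 0.0133; 0.111 against PBS libraries 1 and 4). Without PBS library 1, 4 neutrophil markers were higher, and none against PBS libraries 1 and 4. S100a8, the abundant neutrophil gene, was at 2.4, 0.285, 0.205 and 0.358 CPM after PBS and at 1.42, 1.83, 1.78 and 1.27 CPM after virus.

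Endothelial markers were lower. Of 22 tested, none rose and 6 fell (median -0.62), 4 against PBS libraries 1 and 4. Stab2, a scavenger receptor of sinusoidal endothelium, was at 74.4, 97.0, 51.8 and 122 CPM after PBS and at 33.8, 46.7, 34.6 and 26.4 CPM after virus (-1.29 ± 0.26, adjusted p = 0.00313). The count of 6 was 2 without PBS library 2 or control gRNA library 4 and 3 without PBS library 4 or control gRNA library 3. Of 22 stellate cell and fibroblast markers 2 rose and 2 fell, with neither against PBS libraries 1 and 4, and none rose without PBS library 2 or 3 or control gRNA library 1 or 3. Without PBS library 4 or control gRNA library 2, 1 and 4 of them rose, and 1 fell without any library other than PBS library 1 or control gRNA library 3. Erythroid markers fell in 4 of 7 cases, in 4 against PBS libraries 1 and 4, in 1 without control gRNA library 3 and in 2 without PBS library 1, 3 or 4 or control gRNA library 1. Alas2, the heme enzyme of red cell precursors, was at 15.9, 194, 130 and 41.2 CPM after PBS and at 4.33, 9.44, 8.48 and 12.5 CPM after virus (-3.46 ± 0.68; -1.75 against PBS libraries 1 and 4). Of its 2403 exon bases, 311 overlap Apex2 on the opposite strand. The globin gene Hbb-bt ran differently across PBS libraries, at 27.2, 9.22, 13.8 and 25.6 CPM. After virus it was at 3.10, 10.9, 2.94 and 10.0 CPM, with overlap between the groups (-1.51 ± 0.49, adjusted p = 0.0338).

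Some epithelial genes on the list for bile ducts and progenitors rose, as did a few fetal genes. Of 16 cholangiocyte and ductal progenitor markers, 9 rose and none fell, 2 against PBS libraries 1 and 4, 5 without PBS library 2 or 3, and 4 (with 1 lower) without control gRNA library 1. Krt18 and Krt8, keratins that hepatocytes also make, led them: Krt18 was at 255, 161, 207 and 182 CPM after PBS and at 756, 554, 695 and 542 CPM after virus (1.66 ± 0.23). Krt7 and Krt19, the keratins that define duct cells, did not pass. The 2 members that passed against PBS libraries 1 and 4 were Krt8 and Krt18 (adjusted p = 0.013 and 0.014). Epcam was at 1.98, 1.33, 0.820 and 2.5 CPM after PBS and at 17.0, 2.77, 6.12 and 3.38 CPM after virus, highest in control gRNA library 1 (2.12 ± 0.54, adjusted p = 0.0109; 0.109 against PBS libraries 1 and 4).

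Among 14 fetal and tumour genes 6 rose, 2 of them against PBS libraries 1 and 4, 2 rose without PBS library 3 or control gRNA library 1, and 3 without PBS library 2. Ly6d rose evenly, from 0.570 to 1.74 CPM to 48.9 to 66.7 CPM (5.65 ± 0.80, adjusted p = 0.000707). The imprinted neighbours H19 and Igf2 were uneven between virus libraries, H19 being highest in control gRNA libraries 1 and 3. H19 was at 2.70, 0.380, 0.410 and 1.72 CPM after PBS and at 3540, 7.25, 342 and 4.49 CPM after virus. Igf2 was at 0.475 to 1.14 CPM after PBS and at 716, 1.15, 3.81 and 0.831 CPM after virus, so only control gRNA library 1 was far above PBS. Without that library the log2 fold changes were 6.37 for H19 (adjusted p = 0.0643) and 1.14 for Igf2 (adjusted p = 0.403), against 9.45 and 7.67 with it. Against PBS libraries 1 and 4 neither passed (adjusted p = 0.134 and 0.145), and leaving out any PBS library also ended the Igf2 call (0.0557 to 0.0669), as did PBS library 2, 3 or 4 for H19 (0.0502 to 0.0593).

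**Figure D3:**
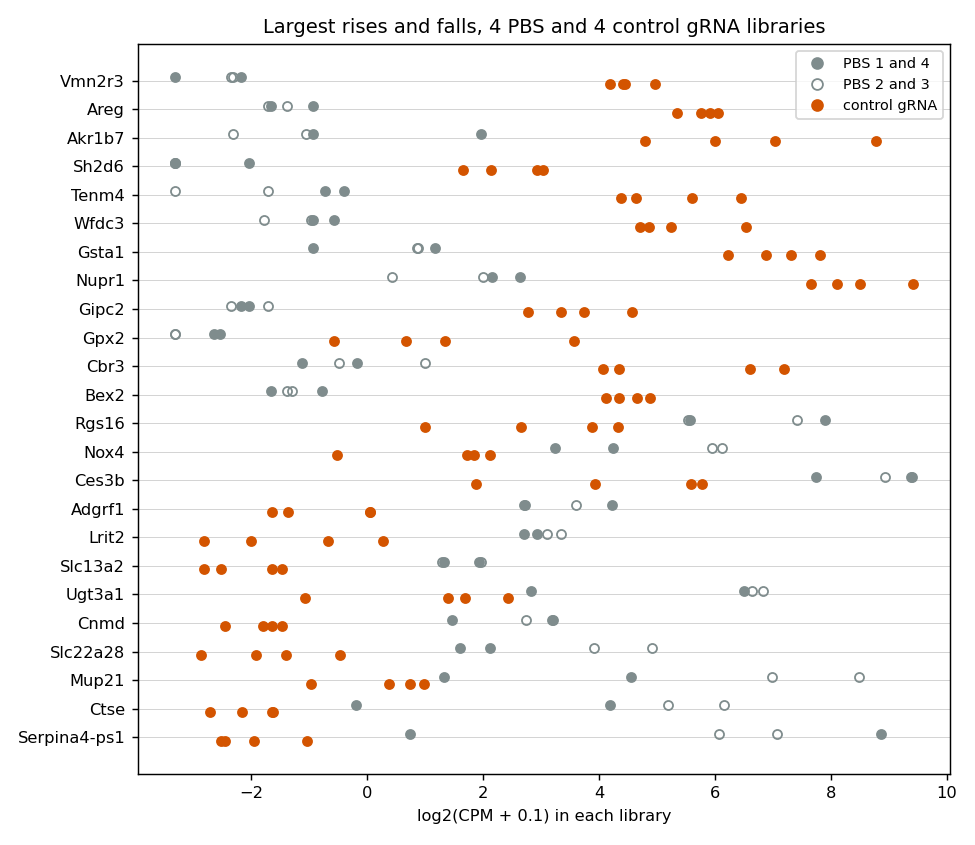
Log2 of CPM with 0.1 added is plotted for the 12 largest rises and 12 largest falls, 1 point per library (grey PBS, open grey PBS libraries 2 and 3, orange control gRNA). The groups do not overlap in any row, which the choice of genes required, and the PBS points spread widely for some falls, as for Serpina4-ps1 (1.57 to 467 CPM).

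Serpina4-ps1, annotated as a pseudogene (ENSMUSG00000092075.1, chromosome 12, 104080649 to 104086724, plus strand), was at 467, 135, 67.3 and 1.57 CPM after PBS and at 0.0746, 0.157, 0.0827 and 0.388 CPM after virus (-9.96 ± 1.74, adjusted p = 0.00225). Its PBS library 4 was far lower than the other 3 and still above every virus library. Ctse, cathepsin E, was at 0.779, 36.5, 71.5 and 18.2 CPM after PBS and at 0.224, 0.0522, 0.124 and 0.222 CPM after virus (-7.58 ± 1.18; -5.89 against PBS libraries 1 and 4). Adgrf1, an adhesion G protein-coupled receptor, was at 6.53, 12.1, 6.45 and 18.6 CPM after PBS and at 0.933, 0.939, 0.290 and 0.222 CPM after virus (-4.17 ± 0.58, adjusted p = 0.00056). Cnmd, Slc13a2, Lrit2 and Ces3b had log2 fold changes of -5.16, -4.37, -4.21 and -4.08. Rgs16, a regulator of G protein signalling, fell by 3.56 on the log2 scale, a call that was lost without control gRNA library 1 or 3 (adjusted p = 0.0675 and 0.0574). Nox4, an NADPH oxidase, and Slc22a28, a transporter of the organic anion family, were highest in PBS libraries 2 and 3, at 69.5 and 61.9 CPM and at 29.9 and 14.9 CPM. Their log2 fold changes were -3.80 and -5.59, and -2.33 and -3.76 against PBS libraries 1 and 4.

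Male-biased liver genes carried some of the deepest falls. Of 21 tested, 17 fell (median -3.93), but 2 fell and 1 rose against PBS libraries 1 and 4 (median -1.09), and 11 fell without PBS library 2 or control gRNA library 1 or 3. Their summed level was 2600, 25800, 9400 and 2950 CPM in PBS libraries 1 to 4 and 2480, 3620, 2730 and 2970 CPM after virus. PBS libraries 2 and 3 were thus high and PBS libraries 1 and 4 within the range of the virus libraries. Mup21, a major urinary protein from a family of near copies, was at 2.4, 358, 127 and 23.2 CPM after PBS and at 0.410, 1.57, 1.20 and 1.88 CPM after virus. Its log2 fold change was -6.68 with all PBS libraries and -3.38 (adjusted p = 0.0293) against libraries 1 and 4. Female-biased genes gave 2 falls of 27 with all PBS libraries and 5 against PBS libraries 1 and 4 (median -1.58). That 2 was 1 without PBS library 4 or any control gRNA library, and 2 rose without PBS library 1 or 4. Sult3a1, a female-biased sulfotransferase, was at 147, 0.190, 0.307 and 99.1 CPM after PBS and at 0.0746, 1.41, 0.0827 and 2.83 CPM after virus. It was lower in each virus library than in PBS libraries 1 and 4 (-6.93, adjusted p = 0.0152). Against all PBS libraries the value was -5.91 (adjusted p = 0.041), a call that was lost without PBS library 1 or 4 or any control gRNA library (0.0568 to 0.105).

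**Figure D4:**
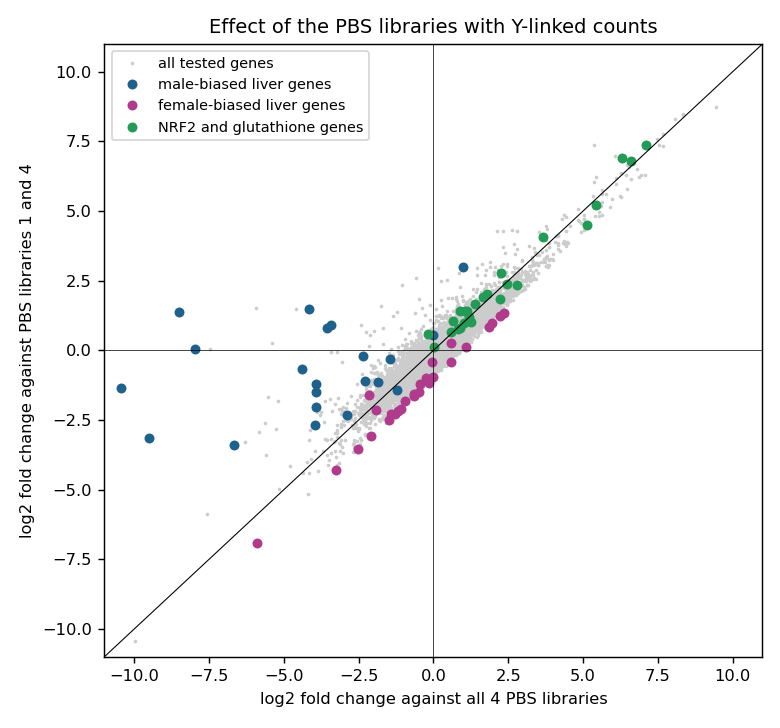
Log2 fold changes against all 4 PBS libraries (x axis) are plotted against those from PBS libraries 1 and 4 alone (y axis), for all genes (grey) and 3 lists. Male-biased genes leave the diagonal toward 0 (median -3.93 to -1.09), female-biased genes lie below it, and NRF2 genes stay near it.

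Genes of fatty acid and triglyceride synthesis fell. Of 22 tested, none rose and 17 fell (median -1.85), and 14 fell against PBS libraries 1 and 4 (median -1.82). Scd1, the desaturase that makes oleate (ENSMUSG00000037071.2, chromosome 19, 44394451 to 44407709, minus strand), was at 2020, 4150, 18100 and 16300 CPM after PBS and at 1620, 487, 1020 and 1240 CPM after virus. PBS library 1 was just above the virus range and PBS libraries 3 and 4 far above it, without overlap (-3.21 ± 0.69, adjusted p = 0.00483). Fasn, fatty acid synthase, was at 541, 1140, 2210 and 1470 CPM after PBS and at 81.2, 159, 133 and 421 CPM after virus (-2.75 ± 0.61). Acaca, acetyl-CoA carboxylase, went from 92.2, 177, 213 and 256 CPM to 46.6, 52.1, 55.1 and 65.5 CPM (-1.75 ± 0.27, adjusted p = 0.000804). Lpin1 and Lpin2, phosphatidate phosphatases, fell by 2.06 and 1.21 on the log2 scale.

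Genes of insulin and growth hormone action and glucose output fell as well. Of 25 tested, none rose and 18 fell (median -1.14), 11 against PBS libraries 1 and 4 with the same median. Ghr, the growth hormone receptor, was at 455, 841, 748 and 633 CPM after PBS and at 187, 233, 181 and 235 CPM after virus (-1.68 ± 0.22, adjusted p = 0.000417). Insr, the insulin receptor, was at 126, 186, 201 and 213 CPM after PBS and at 78.2, 74.9, 71.4 and 83.2 CPM after virus (-1.24 ± 0.18, adjusted p = 0.000716). Stat5b, which carries the growth hormone signal, fell by 1.12 on the log2 scale.

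Other lipid lists shifted in fewer members. Of 25 cholesterol synthesis and uptake genes none rose and 7 fell, 3 against PBS libraries 1 and 4, 3 without control gRNA library 1 or 3, and 4 without PBS library 3 or 4. Sc5d, a late enzyme of cholesterol synthesis, was at 515, 597, 820 and 907 CPM after PBS and at 180, 294, 273 and 349 CPM after virus (-1.37 ± 0.30). Among 24 apolipoprotein and lipoprotein genes 2 rose and 10 fell (1 and 3 against PBS libraries 1 and 4; 4 fell without control gRNA library 1 and 6 without control gRNA library 3). Lpl, lipoprotein lipase, which adult hepatocytes hardly express, was at 19.1, 15.1, 10.7 and 32.2 CPM after PBS and at 487, 135, 328 and 58.1 CPM after virus (3.70 ± 0.68, adjusted p = 0.00236). Apoa5 was at 903, 1230, 1310 and 1190 CPM after PBS and at 371, 325, 461 and 424 CPM after virus (-1.55 ± 0.23). Of 31 genes of fatty acid oxidation and PPAR alpha 1 rose and 7 fell (none and 2 against PBS libraries 1 and 4), 14 fell without PBS library 1, and none rose without PBS library 2 or control gRNA library 1. Over all genes 15.8% fell, and 7.05% against PBS libraries 1 and 4, so the 2 of 31 are no larger a share.

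Transcription factors of the hepatocyte were mostly lower. Of 25 tested, 1 rose (Atf5) and 15 fell (median -0.78), and 1 rose and 5 fell against PBS libraries 1 and 4. Ppara, the fasting-induced regulator of fat oxidation (ENSMUSG00000022383.13, chromosome 15, 85734983 to 85802819, plus strand), was at 101, 264, 214 and 146 CPM after PBS and at 23.7, 31.0, 23 and 33.9 CPM after virus (-2.70 ± 0.29, adjusted p = 0.000153). Nr3c1, the glucocorticoid receptor, was at 105, 109, 113 and 128 CPM after PBS and at 51.4, 64.5, 61.1 and 63.0 CPM after virus (-0.92 ± 0.12, adjusted p = 0.000388). Foxa2, Foxa3, Hhex, Esrra and Tbx3 were among the members that did not pass.

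Among genes for secreted plasma proteins, most of complement and coagulation fell, and fewer of the acute phase. Of 35 complement and coagulation genes none rose and 27 fell (median -1.11), 9 against PBS libraries 1 and 4, 15 without control gRNA library 3, and 16 or 17 without PBS library 2 or 3 or control gRNA library 1. C4b, complement component C4, was at 1300, 2460, 2090 and 2130 CPM after PBS and at 477, 723, 620 and 612 CPM after virus (-1.71 ± 0.25, adjusted p = 0.000725). Of 28 acute-phase genes 2 rose and 11 fell (none and 9 against PBS libraries 1 and 4), with 4 rising without PBS library 1 and 1 without control gRNA library 1. Fga, the fibrinogen alpha chain, was at 3780, 4600, 4240 and 5290 CPM after PBS and at 1410, 1680, 1450 and 1530 CPM after virus (-1.56 ± 0.25, adjusted p = 0.00109). Of 20 hepatocyte markers none rose and 15 fell, 5 against PBS libraries 1 and 4 and 9 without control gRNA library 3, and their sum ran from 136000 to 165000 CPM after PBS and from 71900 to 98500 CPM after virus. Alb and Ttr did not pass (adjusted p = 0.138 and 0.425). Apoa1 fell by 1.23 on the log2 scale, a call that was lost against PBS libraries 1 and 4 (adjusted p = 0.0522), without PBS library 1 (0.071) and without control gRNA library 1, 3 or 4 (0.0648 to 0.0782). C3 fell by 1.00 on that scale with an adjusted p of 0.0449, lost against PBS libraries 1 and 4 (0.0744) and on leaving out any library other than PBS library 1 (0.0557 to 0.17).

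Of 35 urea cycle and amino acid genes 1 rose and 25 fell (none and 8 against PBS libraries 1 and 4). None rose without PBS library 2 or 3 or control gRNA library 1, 2 or 3. Aldh6a1, of valine breakdown, was at 320, 662, 679 and 657 CPM after PBS and at 168, 227, 211 and 260 CPM after virus (-1.42 ± 0.26). Of 28 cytochrome P450 genes 4 rose and 14 fell (3 and 1 against PBS libraries 1 and 4; 8 fell without PBS library 3 or control gRNA library 1, 9 without PBS library 2, and 2 rose without control gRNA library 3 or 4). Over all genes, 6.91% rose and 7.05% fell against PBS libraries 1 and 4. Cyp2a5 was at 483, 810, 1100 and 808 CPM after PBS and at 2620, 3380, 4560 and 3920 CPM after virus (2.18 ± 0.34, adjusted p = 0.0009). Cyp2e1, the ethanol-oxidizing P450, was at 4440, 7090, 8480 and 3490 CPM after PBS and at 446, 1920, 903 and 1410 CPM after virus (-2.33 ± 0.52, adjusted p = 0.00593; 0.0624 against PBS libraries 1 and 4). Of 25 bile acid genes 1 rose and 12 fell (1 and 7 against PBS libraries 1 and 4). The one that rose was Slc51b, a subunit of the basolateral bile acid exporter, from 0.180 to 0.215 CPM to 1.16 to 5.63 CPM (4.11 ± 0.53), while its partner Slc51a had 0 counts in all 8 libraries.

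Of 23 circadian genes none rose and 10 fell, 6 against PBS libraries 1 and 4, 5 without control gRNA library 1 or 3, and 6 without PBS library 3 or control gRNA library 2. Cry2, a repressor of the clock, was at 51.6, 56.4, 55.0 and 60.5 CPM after PBS and at 28.9, 29.9, 24.8 and 29.0 CPM after virus (-0.99 ± 0.11, adjusted p = 0.00021). The hour of harvest is not given in the sources used here. Of 20 p300-related coactivators 1 rose and 9 fell, none and 5 against PBS libraries 1 and 4 (median -0.26, and 0.10 under library-size scaling), and 4 rose without PBS library 1. Ncoa2 was at 43.8, 84.8, 82.8 and 81.9 CPM after PBS and at 41.1, 33.0, 36.3 and 35.1 CPM after virus (-1.01 ± 0.19). Ep300, the gene for p300, was at 41.8, 60.1, 55.3 and 58.3 CPM after PBS and at 41.6, 35.6, 39.2 and 40.0 CPM after virus (-0.46 ± 0.16, adjusted p = 0.0396). Whether reads of the dCas9-p300 fusion were counted to Ep300 was not tested. The Ep300 call was lost against PBS libraries 1 and 4 (0.221) and on leaving out any single library except PBS library 1 (0.0642 to 0.102).

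Among 23 iron genes 7 rose and 5 fell (4 and 3 against PBS libraries 1 and 4; 4 rose without PBS library 3, and 3 fell without control gRNA library 3). Ftl1, the ferritin light chain, was at 1660, 1730, 1980 and 1880 CPM after PBS and at 3300, 4600, 4290 and 4690 CPM after virus (1.22 ± 0.19, adjusted p = 0.000903). Tfr2, a transferrin sensor, fell by 1.01 on the log2 scale. Of 20 pericentral Wnt targets 4 rose and 2 fell (4 and 0 against PBS libraries 1 and 4), with a median of -0.18 that was 0.15 under library-size scaling. Gstm3, also counted with the NRF2 and glutathione genes, was among those that rose. The 2 that fell were 5 without PBS library 1 and 1 without PBS library 2, 3 or 4 or control gRNA library 3. Axin2, a common Wnt target, was at 9.47, 8.17, 5.43 and 4.44 CPM after PBS and at 11.5, 18.3, 16.1 and 17.4 CPM after virus (1.20 ± 0.26, adjusted p = 0.00521). Of 38 proteasome subunits 5 rose and none fell (4 against PBS libraries 1 and 4), with 2 or 3 higher without PBS library 2, 3 or 4 or control gRNA library 1, 2 or 3, and 8 higher and 4 lower without PBS library 1. The 5 that rose are no larger a share than the 16.3% over all genes. Of 12 tubulin genes 4 rose and none fell, and 4 rose against PBS libraries 1 and 4. Ctsl, a lysosomal protease, was among the largest rises in absolute CPM, from 316, 493, 489 and 648 CPM to 2500, 2020, 2150 and 1690 CPM (2.11 ± 0.29, adjusted p = 0.000524).

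**Figure D5:**
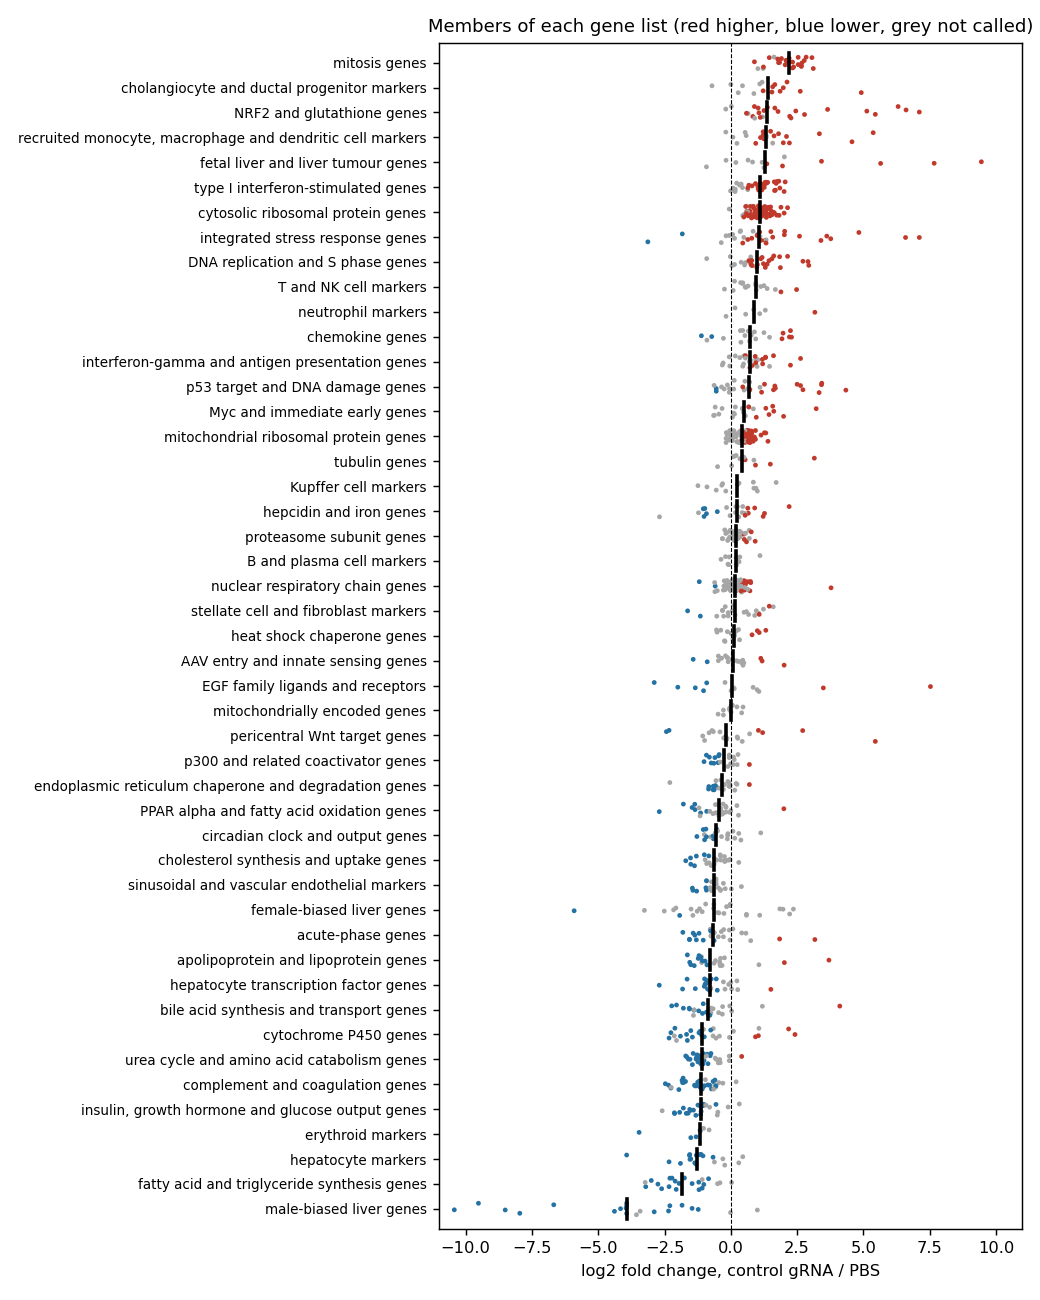
Log2 fold changes (control gRNA over PBS, x axis) of the tested members of 47 gene lists are plotted as points (red higher, blue lower, grey not called), with a bar at each list's median and a dashed line at the median of all genes (-0.01). Mitosis genes lie highest (median 2.18), and fatty acid synthesis (-1.85) and male-biased genes (-3.93) lowest.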

How the data were processed

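The deposited files hold whole-number fragment counts per gene, 1 file per library, which the authors left without normalization. Per the file headers, featureCounts 1.4.6-p4 summed exons by gene on GENCODE M13, without strand. Per the submitters' processing notes, Trimmomatic 0.32, STAR 2.4.1a, DESeq2 1.22.0 and R 3.5.1 were used, with GRCm38 and mm10. The exon length column that the authors deposited was used only to describe genes.

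One edgeR 4.0.16 quasi-likelihood model (R 4.3.3, robust, two-sided) took in all 12 libraries after filterByExpr with minimum count 10 and TMM scaling. Benjamini-Hochberg adjustment covered every tested gene, with 0.05 as the threshold, and an SE follows each log2 fold change after ±. No pair of libraries was a duplicate: chi-square over degrees of freedom was 27.2 to 287. Libraries held 11824767 to 22008046 counts, and the SEs include the spread between libraries as well as counting error. The fits were tested on simulated data. The members, 47 gene lists, tests and alternatives were chosen with earlier results of these data known. Lists share some members, so their counts are not separate observations. Examples are Gstm3 (NRF2 and pericentral Wnt lists), Cxcl10 (interferon-gamma and chemokine lists) and Fga (hepatocyte and acute-phase lists).

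Named genes were the 12 largest rises and 12 largest falls among genes that passed with all PBS libraries and, in the same direction, without the PBS libraries holding over 100 Ddx3y counts. They needed a mean of at least 1 CPM, no overlap between groups and a symbol that is no predicted or clone name. From each list, the tested members lowest in p (at most 3) were included, as were the 5 largest rises and 5 largest falls in CPM, and Xist, Ddx3y, Ep300 and Pdx1. Igf2, Slc7a11, Gdf15, Mdm2, Nqo1, Fasn, Alb, Clec4f, Ttr and Chac1 were added after their values were seen. Members named without values show which did or did not pass. Alternatives were DESeq2 1.42.0 (test and size factors), limma-voom 3.58.1, upper-quartile, library-size and trimmed scalings, other filters, only the 8 libraries, a replicate block, a length trend, a covariate or omission for PBS libraries 2 and 3, a 1.5-fold threshold and each library left out. Results of some genes are not reported here.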

Additional observations from a re-analysis of the deposited data

Results flagged for a closer look

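Within each group of 4, a library was marked where its gap to the nearest other library, over the group's range, exceeded Dixon's 95% critical value. Of 345 such groups over the named genes, 22 were marked, and chance marks about 1 in 20. PBS library 1 accounted for 11 of them. It was high for Lcn2 (16.5 CPM, the others 5.23 to 6.65), S100a8 (2.4 against 0.205 to 0.358), Jun (38.7 against 15.6 to 17.3), Ccl3 (0.420 against 0.190 to 0.215), Mrpl54 (29.1 against 16.7 to 18.7), mt-Nd3 (58.5 against 15.9 to 21.2) and Apoa1 (18100 against 7440 to 8250). It was low for Mavs (61.5 CPM against 115 to 122), Aldh6a1 (320 against 657 to 679), Cyp2j5 (363 against 819 to 869) and Ncoa2 (43.8 against 81.9 to 84.8).

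PBS library 2 was high for the macrophage scavenger receptor Cd163 (48.8 CPM against 11.9 to 16.3) and low for the interferon-induced GTPase Gbp6 (6.18 against 10.3 to 11). PBS library 4 was high for Akr1b7 (3.79 CPM against 0.102 to 0.420), Nrg1 (1.5 against 0.410 to 0.475) and Sh2d6 (0.143 against 0, which is 2 counts).

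Among the virus libraries, control gRNA library 1 was high for H19 (3540 CPM against 4.49 to 342) and Igf2 (716 against 0.831 to 3.81). Control gRNA library 2 was low for Cyp2c55 (26.3 CPM against 80.7 to 90.7). Control gRNA library 3 was high for Gpx2 (11.7 CPM against 0.574 to 2.44) and Abcg8 (108 against 59.8 to 67.8). Control gRNA library 4 was high for Pdx1 (0.111 CPM against 0, which is 2 counts).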

How the results depend on the processing

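No gene called in the report was called in the opposite direction under any setting. The 4887 calls became 2785 (1463 higher, 1322 lower) with a covariate for PBS libraries 2 and 3, 2258 (1118 and 1140) without these libraries, and 1358 (765 and 593) against a 1.5-fold threshold. Library sizes as the scaling gave 4432 higher and 1064 lower. The 2486 calls of at least 2-fold became 1501 with the covariate and 1325 without PBS libraries 2 and 3. With 1 library left out, calls ran from 3445 (without control gRNA library 3) to 6875 (without PBS library 1). The replicate numbers did not pair the libraries (correlations of deviations -0.003, -0.071, -0.046 and -0.169, with 0 of 8 libraries closest to their own number), and a replicate block gave 4127 calls. DESeq2 called 5656 and limma-voom 4676. With only the 8 libraries compared, 14778 genes were tested and 4043 were called (1963 higher, 2080 lower). Among named genes, the values that changed sign were of genes not called. Ighd (0.34) was -0.36 with the covariate, -0.39 without PBS libraries 2 and 3 and from -0.18 (without control gRNA library 2) to 0.76 (without PBS library 4) with 1 library left out. Xist (0.64) was -0.36 with the covariate and -0.38 without both libraries. For mt-Nd3 (0.46) the covariate gave -0.02, the length trend -0.02 and omission of both libraries -0.03. With library sizes mt-Nd5 (-0.28) was 0.08 and Ttr (-0.30) 0.03. Pdx1 (2.06) was -0.23 with limma-voom and 0.0 to 2.39 with 1 library left out, and Clec4f (0.31) was -0.08 to 0.55 with 1 left out. Depth limits genes with few PBS counts, such as Sh2d6 and Gpx2 with 2 each.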
